A study of Homo sapiens with 8 samples.

Results

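The genes described here are 10 secreted glycoproteins of the extracellular matrix: fibronectin (FN1), tenascin C (TNC), the thrombospondins THBS1 and THBS2, SPARC, the fasciclin-domain proteins periostin (POSTN) and TGFBI, fibrillin-1 (FBN1), fibulin-1 (FBLN1) and elastin (ELN). They were chosen by symbol, as the probe sets whose only annotated gene is one of these names, and each of the 10 had exactly 1 such probe set among the 18417 genes tested. The samples were 8 cultures of BT549, an established human breast cancer line of the triple-negative type (without oestrogen receptor, progesterone receptor or amplified HER2). All 8 were kept in RPMI medium with 10% fetal serum and insulin, and the labels name no genetic change in either group. Of these, 4 cultures grew attached to tissue culture plastic, and 4 were kept in suspension for 24 h on plastic coated with poly-HEMA, a polymer that cells cannot grip. The attached cultures are labelled both 24 h and 48 h old, so if the longer time holds, age of culture and attachment cannot be told apart. The series describes the samples as biological replicates of this single line, so p-values speak to the spread between these cultures.

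Matrix glycoproteins of this kind form the fibrils that cells pull on and the adaptors around them. Fibronectin is assembled into fibrils by integrins under tension. Fibrillin builds the microfibrils on which elastin is laid down, and fibulin-1 binds elastic fibres. Thrombospondins, tenascin C, SPARC and periostin belong to the matricellular proteins, which modulate adhesion and growth factor activity more than they carry load. Serum also brings fibronectin into culture medium as protein, which RNA arrays do not see.

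Of the 10 genes, 5 passed the test, in both directions: TGFBI and THBS1 were lower in suspended cells, and FBN1, SPARC and TNC were higher. TGFBI fell 1.58-fold and THBS1 1.37-fold, while FBN1 rose 1.44-fold, SPARC 1.30-fold and TNC 1.19-fold (n = 4 arrays per group). FN1, THBS2, FBLN1, ELN and POSTN did not pass. The 5 calls among 10 genes stand beside 20.6% of all 18417 genes called by limma at an adjusted p under 0.05. By direction, 3 members were higher, against a background of 10.4%, and 2 were lower, against 10.2%. The members lay between the 44.4th (POSTN) and 99.4th (SPARC) percentile of mean signal, and these background shares were not matched for signal. The median log2 difference of the 10 genes was 0.10 (all genes 0.02), and the median absolute difference 0.21 (all genes 0.09). None of the 10 reached a 2-fold change. These are bulk cultures, so a change in RNA per cell and a change in the mix of cells cannot be told apart. How the deposited signals were scaled was not given.

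The deposited signals were alike between arrays, with medians between 6.02 and 6.07 log2 units and correlations of 0.987 to 0.996 between any pair. These were processed values, so this likeness does not show the quality of the RNA or of the raw arrays. ESR1 and PGR, for the hormone receptors, averaged 5.04 and 4.19 in attached cells, below 5.28, the 25th percentile of gene means, which serves here as the mark of low signal. ERBB2, for HER2, was at 7.48. Of 4 mesenchymal markers VIM, at 11.73, did not pass the test, SNAI2 (1.23) and ZEB1 (0.27) were higher in suspension, and CDH2 was lower (−0.38). Of 5 epithelial markers CDH1, at 4.19, was the only one below the mark of low signal, the others being EPCAM (5.47), KRT8 (6.42), KRT19 (6.57) and KRT18 (8.16). Of 5 endothelial markers 4 lay below 5.28, as did 2 of 4 measured leukocyte markers and 2 of 4 adipocyte markers. Among markers of other cell types, RGS5, a pericyte marker, was lower in suspension (log2 difference −0.69), CD68 was lower (−0.39) and CD14 higher (0.22). The summed leukocyte markers ran from 8.70 to 8.77 log2 units in attached and 8.43 to 8.51 in suspended arrays. The summed smooth muscle and pericyte markers ran from 10.29 to 10.35 and from 9.70 to 9.83. The highest signals in these sums were those of CD68 (8.42 attached) and RGS5 (10.10 attached). PTPRC, CD3E, MYH11, DES and CNN1, from the same classes, did not pass the test. The part of these markers in the results was not tested.

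The promoters of the genes are shown first, as a description of their sequence. RefSeq (GRCh38.p14) gives promoter windows for 9 of the 10 genes, and the 250 bases before the start site were searched on both strands for GGAATG (the core of TEAD sites), TGANTCA (AP-1), CAGAC (SMAD element), the TATA box (TATAAA), the GC box (GGGCGG) and the CArG box bound by SRF. GGAATG was found in 4 of the 9: THBS1, THBS2, FBN1 and SPARC. It occurs in 11.9% of all 35116 promoters of the same length. THBS1 fell, FBN1 and SPARC rose, and THBS2 did not pass the test. The part of this motif in these differences was not tested. The TGFBI and FN1 windows held GC boxes alone among the 6 motifs. The 5 windows that follow run 5′ to 3′ on the gene's own strand, with TEAD and SMAD matches in capitals.
THBS1, chr15:39580829-39581078, plus strand: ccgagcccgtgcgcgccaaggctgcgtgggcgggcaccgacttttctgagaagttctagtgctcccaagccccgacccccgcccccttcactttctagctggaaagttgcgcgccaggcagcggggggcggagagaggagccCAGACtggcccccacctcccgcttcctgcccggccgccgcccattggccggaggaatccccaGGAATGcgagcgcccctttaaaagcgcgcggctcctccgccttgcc
THBS2, chr6:169253847-169254096, minus strand: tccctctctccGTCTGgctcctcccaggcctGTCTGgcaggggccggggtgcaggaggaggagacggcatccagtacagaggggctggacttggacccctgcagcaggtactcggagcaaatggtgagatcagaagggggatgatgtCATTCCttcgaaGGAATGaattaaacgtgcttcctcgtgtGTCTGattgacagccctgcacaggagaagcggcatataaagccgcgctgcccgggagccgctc
TGFBI, chr5:136028738-136028987, plus strand: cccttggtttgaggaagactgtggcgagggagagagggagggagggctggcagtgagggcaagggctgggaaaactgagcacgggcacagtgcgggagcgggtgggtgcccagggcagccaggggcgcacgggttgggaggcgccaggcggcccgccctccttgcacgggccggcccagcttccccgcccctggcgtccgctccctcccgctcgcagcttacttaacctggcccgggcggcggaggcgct
FBN1, chr15:48644971-48645220, minus strand: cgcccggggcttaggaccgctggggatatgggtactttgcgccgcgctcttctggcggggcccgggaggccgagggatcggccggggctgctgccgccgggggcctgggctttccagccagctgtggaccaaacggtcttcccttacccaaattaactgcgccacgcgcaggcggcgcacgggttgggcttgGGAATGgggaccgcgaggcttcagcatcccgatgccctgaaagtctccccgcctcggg
SPARC, chr5:151686916-151687165, minus strand: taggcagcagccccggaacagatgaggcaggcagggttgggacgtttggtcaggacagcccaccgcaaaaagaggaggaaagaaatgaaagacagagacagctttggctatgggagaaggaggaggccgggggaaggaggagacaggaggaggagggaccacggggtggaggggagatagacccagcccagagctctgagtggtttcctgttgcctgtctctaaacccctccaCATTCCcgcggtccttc

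In THBS1 the GGAATG match lies 46 to 41 bases before the start and a CAGAC match 108 to 104 bases before it. THBS2 holds GGAATG on opposite strands at 103 to 98 and 91 to 86 bases before its start, 3 SMAD matches and a TATA box 29 to 24 bases before it. FBN1 has its match 58 to 53 bases before the start used in the table, which lies 739 bases inside the annotated span of the gene. The SPARC match, on the reverse strand, is 17 to 12 bases before the start. None of the TEAD matches overlaps another of the motifs. AP-1 letters were found in POSTN alone (6.57% of all promoters), CAGAC in 5 of 9 members (38.0%), the TATA box in 2 (10.7%), the GC box in 5 (42.6%) and the CArG box in 0 (1.16%). A match of letters describes the window and does not show that a factor binds there.

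**Figure D1:**
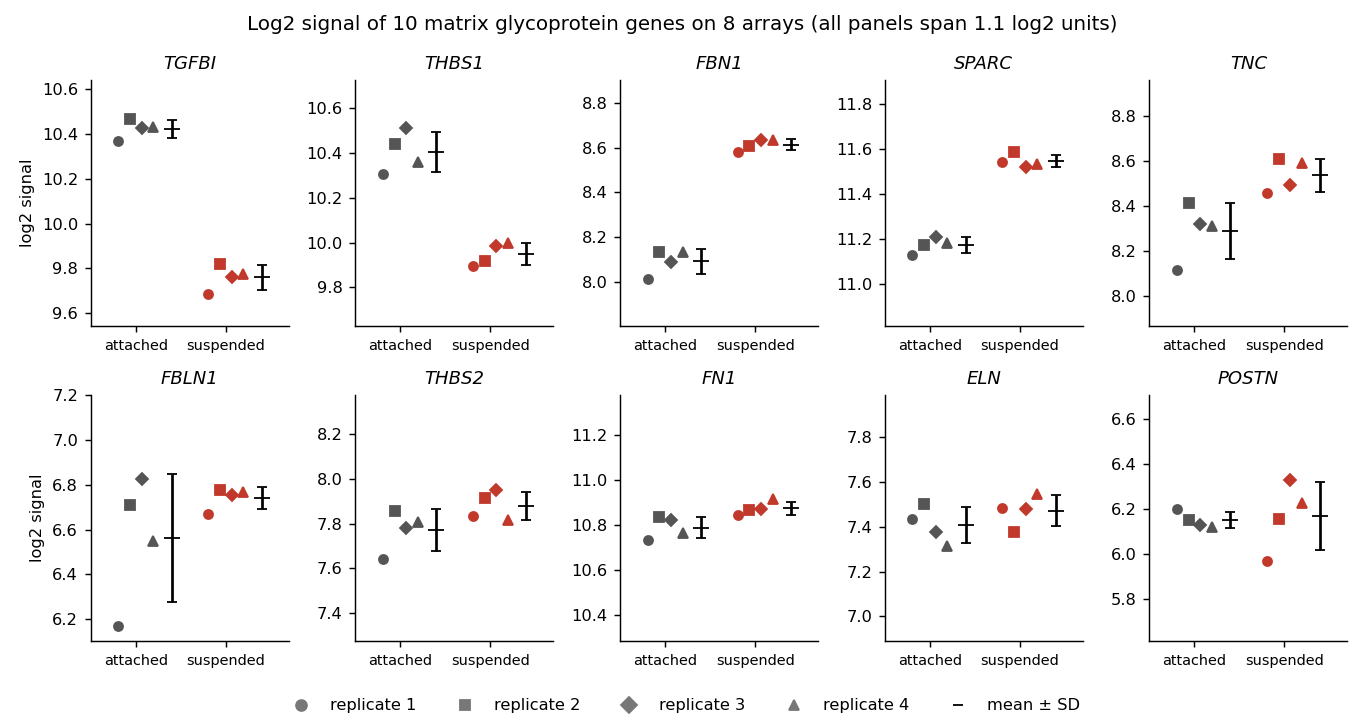
Log2 signal of each of the 10 genes in the 4 attached (grey) and 4 suspended (red) cultures. Marker shape gives the replicate number, the bar beside each group is its mean ± SD, and every panel has the same height in log2 units. TGFBI and THBS1 drop and FBN1, SPARC and TNC rise without overlap, whereas the groups overlap for FBLN1, THBS2, ELN and POSTN, and FN1 is split by a gap of only 0.009.

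TGFBI encodes a secreted fasciclin-domain protein, named for its induction by transforming growth factor beta, that binds integrins and collagen. It had the largest difference of the 10. In attached arrays 1 to 4 its log2 signal was 10.37, 10.46, 10.43 and 10.43, and in suspended arrays 1 to 4 it was 9.69, 9.82, 9.76 and 9.77. Every suspended value lay below every attached one, with a gap of 0.55 between the groups. The log2 difference was −0.66 (SE 0.047, 95% confidence interval −0.77 to −0.56, limma adjusted p = 2.78e-06), a signal 36.8% lower. Of all genes, 98.8% had a smaller absolute difference.

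POSTN, a fasciclin-domain relative of TGFBI found in fibrous tissue and in the stroma of tumours, had a mean difference close to 0. Its log2 signal was 6.20, 6.15, 6.13 and 6.12 attached, and 5.97, 6.16, 6.33 and 6.23 suspended. The suspended values enclosed the attached ones, and their SD (0.15) exceeded that of the attached group (0.04). In mean signal POSTN lay at the 44.4th percentile of all genes and TGFBI at the 97.2nd. Without a detection call, whether POSTN was expressed is not known. The difference was 0.02 (95% confidence interval −0.13 to 0.17, limma adjusted p = 0.881), and it was below 0 after median centring (−0.004, or −0.03 with centring on the tested genes) and after quantile normalization. TGFBI and POSTN therefore gave unequal differences: their within-array log2 difference shifted by −0.68 between the groups (exact permutation p = 0.0286, adjusted p = 0.0357 over 5 pairs of related genes).

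THBS1, thrombospondin-1, a large trimeric glycoprotein that inhibits angiogenesis and can activate latent transforming growth factor beta, was the other member that fell. Its log2 signal in the attached arrays was 10.31, 10.44, 10.51 and 10.36, and in the suspended arrays 9.89, 9.92, 9.98 and 10.00. The groups were separated by 0.31, more than the range within either one. The difference was −0.46 (SE 0.055, 95% confidence interval −0.58 to −0.34, limma adjusted p = 0.000133), a signal 27.1% lower.

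THBS2, its close relative with a similar domain plan, did not follow it. The log2 signal was 7.64, 7.86, 7.78 and 7.81 in attached and 7.84, 7.91, 7.95 and 7.82 in suspended arrays. Attached replicate 1 was the lowest of the 8. Attached replicates 3 and 4 also lay below every suspended value, and attached replicate 2 lay within the suspended range. The difference was 0.11 (95% confidence interval −0.02 to 0.23, limma adjusted p = 0.227). The change of THBS1 differed from that of THBS2 by −0.56 on the log2 scale, so the THBS1 signal relative to THBS2 was 1.48-fold lower in suspension (exact permutation p = 0.0286, the smallest that 70 assignments allow; adjusted p = 0.0357). In the promoters printed above, both genes carry GGAATG and CAGAC, and the part of these motifs was not tested.

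FBN1 encodes fibrillin-1, the chief component of the microfibrils that scaffold elastic fibres and hold latent transforming growth factor beta. It had the largest rise among the members. Attached arrays gave 8.01, 8.13, 8.09 and 8.13, and suspended arrays 8.58, 8.61, 8.63 and 8.63. The suspended values spanned only 0.05 log2 units and all exceeded the attached ones by at least 0.45. The log2 difference was 0.52 (SE 0.046, 95% confidence interval 0.42 to 0.62, limma adjusted p = 1.3e-05).

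The other elastic fibre genes among the members did not pass. ELN encodes tropoelastin, the stretchable core of the fibre. Its log2 signal was 7.44, 7.50, 7.38 and 7.32 attached and 7.49, 7.38, 7.48 and 7.55 suspended, and the groups overlapped. The ELN difference was 0.07 (95% confidence interval −0.06 to 0.19, limma adjusted p = 0.456). FBN1 changed by 0.46 more than ELN (exact permutation p = 0.0286, adjusted p = 0.0357).

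FBLN1, fibulin-1, binds fibronectin and elastic fibres. It gave 6.17, 6.71, 6.82 and 6.55 attached and 6.67, 6.78, 6.75 and 6.77 suspended. Attached replicate 1 was far below the rest, and the SE of FBLN1 (0.113) was the largest of the 10, and 1.87% of all genes had a larger one. The difference was 0.18 (95% confidence interval −0.07 to 0.43, limma adjusted p = 0.305), and 0.05 without attached replicate 1. The interval reaches 1.34-fold, so it holds changes as large as that of SPARC. FBN1 exceeded FBLN1 in change by 0.34 (exact permutation p = 0.0571, adjusted p = 0.0571). Without attached replicate 1 this gap was 0.45 (adjusted p = 0.0286).

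SPARC, also called osteonectin, binds collagen and counters cell spreading. Its log2 signal was 11.13, 11.17, 11.21 and 11.18 in attached and 11.55, 11.59, 11.52 and 11.54 in suspended arrays. The groups lay 0.31 apart, and the standard error of SPARC was the smallest of the 10 members. The difference was 0.37 (SE 0.043, 95% confidence interval 0.28 to 0.47, limma adjusted p = 0.000102).

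FN1, fibronectin, did not pass the test although its groups did not overlap. The attached arrays gave 10.73, 10.84, 10.82 and 10.76 and the suspended arrays 10.84, 10.87, 10.87 and 10.92. The highest attached and the lowest suspended array were 0.009 apart. The log2 difference was 0.09 (95% confidence interval −0.01 to 0.19, limma adjusted p = 0.216), so an FN1 rise above 1.14-fold lies outside the interval. The array gives 1 value for the whole gene, and the splice forms of fibronectin that include the extra domains were not analysed here. With FN1, 6 of the 10 members had groups without overlap, against 24.8% of all genes, a share not matched for signal.

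TNC, tenascin C, a hexameric glycoprotein that interferes with adhesion to fibronectin and marks remodelled stroma, rose by the least of the called genes. Its log2 signal was 8.11, 8.41, 8.32 and 8.31 attached and 8.46, 8.61, 8.49 and 8.59 suspended. The groups were 0.04 apart, with attached replicate 1 the lowest. The difference was 0.25 (SE 0.067, 95% confidence interval 0.10 to 0.39, limma adjusted p = 0.0219). The call was lost without attached replicate 1 (0.19, limma adjusted p = 0.0508), suspended replicate 2 (0.22, 0.054) or suspended replicate 4 (0.23, 0.0572), and with arrays centred on the median of the tested genes (0.20, 0.0551). FN1 changed by 0.16 less than TNC (exact permutation p = 0.0286, adjusted p = 0.0357), and this call was lost when any 1 suspended array was left out (adjusted p = 0.0571 to 0.0714). Those refits have 35 assignments each, and the FN1 minus TNC values of the groups still did not overlap. Their lost calls alone therefore do not show that the shift rests on 1 array.

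**Figure D2:**
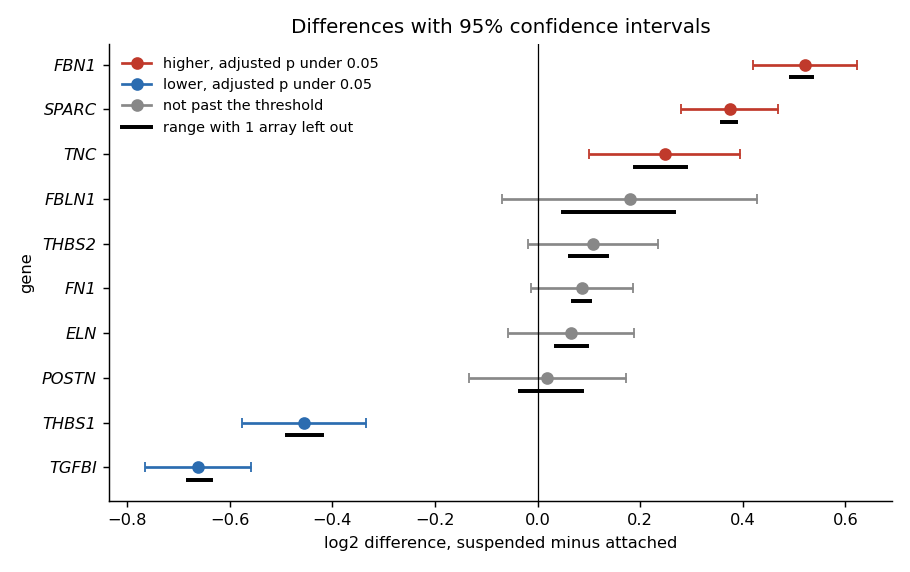
Log2 difference, suspended minus attached, for each gene (points) with its 95% confidence interval from limma (horizontal bars); black lines give the range over 8 refits with 1 array left out. Intervals of TGFBI and THBS1 lie below 0, those of FBN1, SPARC and TNC above 0, and the remaining 5 include 0.

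**Figure D3:**
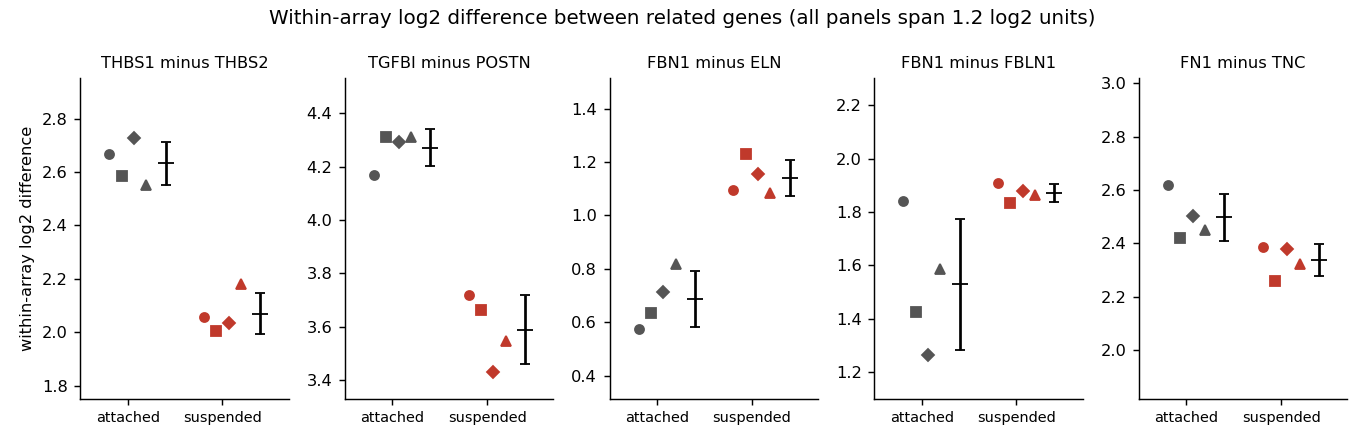
Log2 signal of the first gene minus that of the second on the same array, for 5 pairs of related genes in attached (grey) and suspended (red) cultures, with mean ± SD beside each group and marker shapes giving replicates 1 (circle), 2 (square), 3 (diamond) and 4 (triangle). The height itself has no meaning across probe sets, and the shift between groups shows unequal change; the groups overlap only for FBN1 minus FBLN1.

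The members shared a pattern across replicates that the groups do not give. Attached replicate 1 had the lowest attached signal for 8 of the 10 genes, the exceptions being POSTN and ELN, whereas it was lowest for 28.7% of all genes. Suspended replicate 1 was the lowest suspended array for 7 of the 10, all but THBS2, SPARC and ELN, against 26.8% of all genes. The median deviation of the members from their group mean was −0.07 and −0.05 log2 units on these arrays, and that of all genes 0.00 on both. With both arrays numbered 1 left out, the members called were again 3 higher and 2 lower. In that fit the TNC difference was 0.22 (limma adjusted p = 0.0407) and the FBLN1 difference 0.07.

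The genes whose 8 values ran closest to those of the members with the largest rise and fall were found by root mean square distance after each gene was set to a mean of 0. For FBN1 these were MFSD1 (distance 0.023 log2 units, difference 0.50), CDKN1B (0.024, difference 0.54) and GATA3 (0.032, difference 0.49). SPARC was the nearest member to FBN1, at rank 185. For TGFBI the closest were BDKRB1 (0.035, difference −0.64), VGLL3 (0.036, difference −0.65) and SMURF2 (0.036, difference −0.63), with THBS1 the nearest member at rank 157. Over 8 arrays in 2 groups, such a distance is set mainly by the size of the group difference.

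Genes that work with the members were taken as 8 lists, in which the members themselves were left out. Some genes stand in several lists. With each gene counted once, the lists together had 126 measured genes, of which 35 were higher and 14 lower (38.9% called, against 20.6% of all genes). Their median log2 difference was 0.07, against 0.02 for all genes. Names beyond the 3 smallest adjusted p of a list with over 5 calls were added after their values were seen, as were genes named as not passing.

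Among 13 partners and assembly factors of fibronectin, 5 rose and 3 fell (median 0.06). TGM2, the transglutaminase that crosslinks fibronectin and helps it to bind integrins, fell from 8.54 ± 0.06 to 6.97 ± 0.09 (mean log2 ± SD, n = 4), which is 2.97-fold. LTBP2 (−0.92) and the adhesion adaptor TNS3 (−0.43) fell as well. EDIL3, a secreted ligand of integrins, rose 1.71-fold, from 9.78 ± 0.06 to 10.56 ± 0.06. The other rises were FNDC1 (0.45), MFGE8 (0.42), FBLN2 (0.32) and NPNT (0.29). NPNT was not called without attached replicate 3 or without both arrays numbered 1.

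Of 13 relatives and receptors of thrombospondins, 4 rose and 0 fell (median 0.04), with 5 past an unadjusted p of 0.05. The endocytic receptor LRP1, which takes up thrombospondins, rose from 7.50 ± 0.06 to 8.10 ± 0.05 (1.52-fold) and SPON2, a secreted protein with a thrombospondin repeat, 1.56-fold. THBS3, a pentameric thrombospondin, rose by 0.32 and THSD4 by 0.18. The THSD4 call held with suspended replicate 2 left out but with no other array, and was lost when blocked by replicate number (limma adjusted p = 0.0773). With both arrays numbered 1 left out, 2 of the 13 were called higher, without THBS3 and THSD4. The count of falls was 1, the protease ADAMTS1, without suspended replicate 1 or with arrays centred on the median of the tested genes; with all arrays as deposited its difference was −0.23 (limma adjusted p = 0.131). The receptors CD36 and CD47 did not pass.

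In the SPARC family, 0 of 7 measured relatives rose and 2 fell (28.6% called), and the median difference was 0.01, with 4 differences above 0, 3 below and 3 genes past an unadjusted p of 0.05. FSTL1, a follistatin-like relative, fell from 10.90 ± 0.04 to 10.35 ± 0.04 (1.46-fold), and SPOCK1, a testican proteoglycan, from 8.88 ± 0.12 to 8.49 ± 0.09 (1.31-fold). Of the tenascin relatives TNR and TNN were measured, and 0 of 2 passed, also at an unadjusted p of 0.05.

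Among 30 genes of fibrillin microfibrils and elastic fibres, 5 rose and 3 fell (median 0.07, 26.7% called). LTBP1, LTBP2 and FBLN2 are also in the fibronectin list. The rises were EMILIN2 (0.38), FBLN2, the microfibril protein MFAP2 (0.31), the second fibrillin FBN2 (0.18) and the crosslinking enzyme LOXL1 (0.17), all smaller in size than that of FBN1. FBN2 had a signal of 5.03 attached and 5.21 suspended, below the mark of low signal, and its call was lost without attached replicate 4 or suspended replicate 1 or 2 and with the trended robust prior. The falls were LTBP2, from 7.90 ± 0.07 to 6.98 ± 0.11 (1.89-fold), LOX, which crosslinks elastin and collagen, from 9.63 ± 0.03 to 8.75 ± 0.10 (1.84-fold), and EFEMP1 (−0.18). Median centring left 3 rises, without FBN2 and LOXL1, and so did the fit without attached replicate 1. EFEMP1 kept its call with attached replicate 1 left out but with no other array, and lost it when blocked by replicate number (limma adjusted p = 0.0725).

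Integrins and syndecans that bind fibronectin or related glycoproteins, through the RGD motif, other sequences or heparan sulphate, were measured as 15 genes, of which 9 did not pass. Of the 15, 2 rose and 4 fell (median −0.05). ITGB8 rose from 7.63 ± 0.06 to 8.74 ± 0.05 (2.15-fold); its integrin with the alpha V chain activates latent transforming growth factor beta. SDC3, a heparan sulphate co-receptor, rose 1.36-fold. ITGB5 (−0.22), ITGA4 (−0.22), ITGA3 (−0.19) and ITGB1 (−0.18) fell. However, the number of falls was 1 to 4 over the 8 refits with 1 array left out. Over 6 other settings it was 2 to 5, with 2 after quantile normalization. ITGB1 also lost its call when blocked by replicate number (limma adjusted p = 0.0939). The fibronectin receptor chain ITGA5 (−0.15, limma adjusted p = 0.0541) and its alternative ITGAV (0.10, limma adjusted p = 0.158) did not pass.

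Of 35 other matrix glycoproteins 11 rose and 1 fell (median 0.13). SNED1 rose from 5.83 ± 0.17 to 7.22 ± 0.11 (2.62-fold) and the basement membrane protein NID2 from 6.58 ± 0.06 to 7.12 ± 0.09 (1.46-fold). CCDC80 fell from 8.78 ± 0.04 to 7.70 ± 0.04 (2.11-fold).

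Transforming growth factor beta is a known inducer of TGFBI, FN1, THBS1, POSTN and TNC, and its pathway was measured beside them. Of 16 ligands, receptors and signalling genes 9 rose and 2 fell (median 0.35). The ligand TGFB2 rose from 8.36 ± 0.04 to 9.08 ± 0.06 (1.65-fold), TGFB3 from 6.69 ± 0.10 to 7.36 ± 0.16 (1.58-fold) and TGFB1 by 0.39. The receptors TGFBR1 (0.39), TGFBR2 (0.37) and TGFBR3 (0.65) rose too. The ubiquitin ligase SMURF2, which degrades pathway components, fell 1.54-fold, and the SMAD co-repressor SKIL by 0.28. Other negative regulators rose: the co-repressor SKI by 0.36 and the inhibitory SMAD7 by 0.34. SMAD3, a transducer of the signal, rose by 0.43. Of the 5 members named as examples of induced genes, TNC rose, TGFBI and THBS1 fell, and FN1 and POSTN did not pass. The 5 are not a full list of the inducible members. Among the members not named there, FBN1 and SPARC rose, and THBS2, FBLN1 and ELN did not pass. Pathway activity was not measured, and its part in these differences was not tested.

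**Figure D4:**
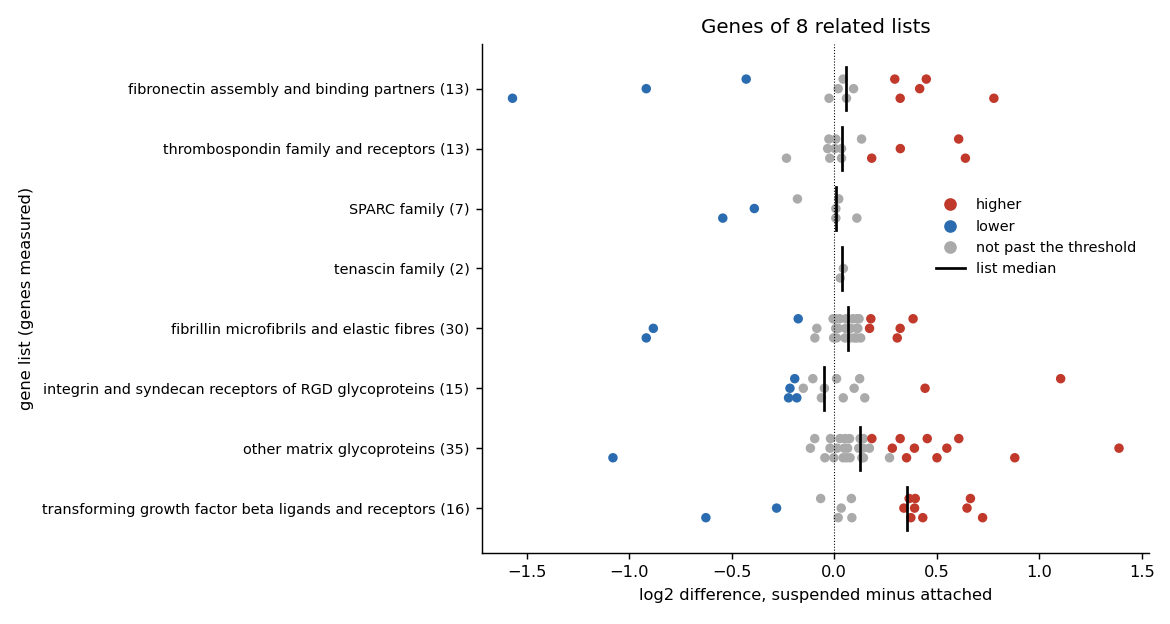
Log2 difference, suspended minus attached, of every measured gene in 8 lists related to the members, with list medians as black lines. Each gene has 1 point in every list that holds it (red higher, blue lower, grey not past adjusted p under 0.05). Most points lie near 0, TGM2 is lowest at −1.57 and SNED1 highest at 1.39, and the transforming growth factor beta list has the highest median, 0.35.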

How the data were processed

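Total RNA of 8 BT549 cultures was measured on gene-level arrays, 1 value per probe set. The labels name a biotin kit made for small RNA, which leaves the labelling of the hybridised RNA uncertain. The deposited table holds the authors' log2 signals for 33297 probe sets; that they are log2 is inferred from their range, with array maxima of 13.69 to 13.73. The submitters' processing notes name Partek. How signals were corrected, normalized and summarised was not given in the sources used here, nor was the Partek version. No detection call was used, so folds are ratios of signals.

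Probe sets with 1 gene symbol (19460) gave 18417 genes. Where a gene had several, the probe set with the highest mean stood for it. Groups were compared by limma 3.58.1 in R 4.3.3 (lmFit, eBayes, two-sided, no covariate), with Benjamini-Hochberg adjustment over all 18417 genes and a threshold of 0.05. Differences are suspended minus attached, SE and intervals are moderated, and SD is over 4 arrays. Pairs of members were compared by two-sided exact permutation of the within-array difference over 70 assignments, adjusted over 5 pairs. Promoters came from RefSeq, GRCh38.p14. The limma fit was tested on simulated arrays, and the permutation code on constructed values with a known answer. Permutations ran in Python 3.11.15 with numpy 2.4.6 and scipy 1.17.1. Protein sequences were not analysed here.

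The members, pairs and lists were chosen with earlier results of these data known, so their counts are not independent evidence. The rule for names took the 10 members, in each list the 3 called genes with the smallest adjusted p and every called gene where 5 or fewer were called, and the 3 genes closest in pattern to the member with the largest rise and to the one with the largest fall. Further called genes of the fibronectin, elastic fibre, receptor and transforming growth factor beta lists, and some uncalled receptors and ADAMTS1, were named after their values were seen. Alternatives were median centring, quantile normalization, a filter at the 25th percentile, the mean of probe sets, each probe set on its own, a trended robust prior, array weights, the replicate number as a block and each array left out. Centring on the tested genes and leaving out both arrays numbered 1 were added after the data were seen. Over all genes, same-numbered arrays did not deviate together (correlations −0.20 to 0.04). This cannot tell whether same-numbered cultures were set up together. Both arrays numbered 1 were, as given above, low for most of the members.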

Additional observations from a re-analysis of the deposited data

How the results depend on the processing

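The counts of members called, 3 higher and 2 lower, held under 8 other settings that keep all arrays, and in the fit without both arrays numbered 1. With 1 array left out they were 2 to 3 higher and 2 lower, and 2 and 2 with arrays centred on the median of the tested genes. TGFBI (−0.71 to −0.61), THBS1 (−0.50 to −0.40), FBN1 (0.48 to 0.55) and SPARC (0.33 to 0.44) stayed called throughout. The balance of all calls depended on scaling: 50.4% were higher as deposited and 35.2% after centring on the tested genes (1340 higher, 2472 lower), which moved all differences by −0.05.

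With the replicate number as a block, no member changed its call, and THSD4, EFEMP1 and ITGB1 lost theirs. For the pairs, the exact permutation test within blocks reaches at best p = 0.125, which each of the 5 gave, with shifts of −0.56 (THBS1 and THBS2), −0.68 (TGFBI and POSTN), 0.46 (FBN1 and ELN), 0.34 (FBN1 and FBLN1) and −0.16 (FN1 and TNC). With 1 array left out the shift was 0.25 to 0.45 for FBN1 and FBLN1 and −0.19 to −0.12 for FN1 and TNC, past the threshold only without attached replicate 1 for the former. The number of arrays limits precision, and 20 groups of 4 values held 0 outlying arrays by Dixon's test. Causes of lost calls were not tested.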
